A study of Mus musculus with 18 samples.

Results

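The IFIT and IFITM families of interferon-stimulated genes were described in mouse bone marrow-derived macrophages (BMDMs) cocultured with renal tubular epithelial cells (TECs). The members were the 8 gene symbols Ifit1, Ifit2, Ifit3, Ifit3b, Ifitm1, Ifitm2, Ifitm3 and Ifitm6, found by symbol among 25926 genes in the expression table. RNA-seq had been done on 18 samples in 3 groups of 6. All BMDMs were grown from C57BL/6J marrow with M-CSF (50 ng/mL, 7 days) and held in the upper Transwell chamber (0.4 μm pores) above TECs cultured from kidneys of wild-type mice. NC BMDMs received PBS and their TECs no crystals. COM BMDMs received PBS while their TECs were exposed for 24 h to calcium oxalate monohydrate (COM) at 100 μg/mL. COM+Met BMDMs lay above TECs exposed in the same way and received Met at 5.0 mM for 24 h, an abbreviation that the labels do not spell out. The comparisons address how BMDMs respond to crystal-exposed TECs, and how Met changes that response. Whether the 6 samples in a group are separate cultures or animals is not stated in the labels, so p-values may reflect technical spread alone.

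Interferon-stimulated genes are switched on when a type I or type III interferon binds its receptor and the kinases Jak1 and Tyk2 activate STAT proteins, which join Irf9 in the factor ISGF3. IFIT proteins (interferon-induced proteins with tetratricopeptide repeats) lie in the cytoplasm, and Ifit1 binds viral RNA whose cap lacks a methyl group and keeps it from being translated. IFITM proteins (interferon-induced transmembrane proteins) sit in the plasma membrane and in endosomes, where Ifitm3 hinders the fusion of enveloped viruses. In macrophages both families are known as part of the antiviral programme, while Ifitm1 and Ifitm2 are also expressed without interferon in many cell types.

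The families lie in clusters on separate chromosomes. In GENCODE M21 on the build GRCm38, all 8 are protein-coding genes. On chromosome 19, Ifit2 spans chr19:34550694-34576419, Ifit3 chr19:34583531-34588731, Ifit3b chr19:34607970-34613401 and Ifit1 chr19:34640871-34650009, all on the plus strand. On chromosome 7, Ifitm2 spans chr7:140954837-140955987 (minus), Ifitm1 chr7:140967221-140969825 (plus), Ifitm3 chr7:141009586-141010770 (minus) and Ifitm6 chr7:141015699-141017924 (minus). These positions come from the reference annotation, since the expression table holds none and nothing states its own build beyond the names mm8 and mm9 that the submitters' processing notes give.

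In the windows searched, the members differed in matches to the interferon-stimulated response element (ISRE), the motif bound by ISGF3. In RefSeq sequence of GRCm38.p6, windows from 250 bases before to 50 bases after each start site were searched on both strands for the ISRE core GAAANNGAAA, which reads TTTCNNTTTC on the other strand. Of 27025 genes, 3.99% held at least 1 match. Among the members, Ifit1, Ifit3, Ifit3b and Ifitm3 held 2 matches each and Ifitm2 held 1, while Ifit2 (in both of its windows), Ifitm1 and Ifitm6 held 0. Stretches of the Ifit1, Ifit3 and Ifit3b windows are shown for the paired matches they hold, those of Ifitm3 and Ifitm2 for a riser and a gene whose level moved little, and that of Ifitm1 as one without a match. Capitals mark the matches, each line runs 5′ to 3′ on the strand of the gene and ends at the start site, and the Ifitm3 line runs 30 bases past it.
Ifit1: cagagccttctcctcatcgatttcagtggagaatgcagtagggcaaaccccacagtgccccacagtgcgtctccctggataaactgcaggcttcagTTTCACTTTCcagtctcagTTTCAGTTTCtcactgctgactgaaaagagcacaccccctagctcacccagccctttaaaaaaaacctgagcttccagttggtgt
Ifit3: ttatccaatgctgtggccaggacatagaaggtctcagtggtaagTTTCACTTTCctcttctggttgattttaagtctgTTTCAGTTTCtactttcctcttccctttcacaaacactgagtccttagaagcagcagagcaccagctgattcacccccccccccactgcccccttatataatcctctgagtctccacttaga
Ifit3b: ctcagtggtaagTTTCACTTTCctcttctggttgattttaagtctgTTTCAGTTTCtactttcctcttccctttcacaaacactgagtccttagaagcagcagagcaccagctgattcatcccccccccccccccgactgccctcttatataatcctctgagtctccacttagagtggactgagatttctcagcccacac
Ifitm3: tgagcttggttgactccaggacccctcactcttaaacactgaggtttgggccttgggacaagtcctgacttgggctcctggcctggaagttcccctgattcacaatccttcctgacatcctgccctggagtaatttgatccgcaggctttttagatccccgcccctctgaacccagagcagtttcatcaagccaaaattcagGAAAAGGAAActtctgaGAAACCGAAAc
Ifitm2: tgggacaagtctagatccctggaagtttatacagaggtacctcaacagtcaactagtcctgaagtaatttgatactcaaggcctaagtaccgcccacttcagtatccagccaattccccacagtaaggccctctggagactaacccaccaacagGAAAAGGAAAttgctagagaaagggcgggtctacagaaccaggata
Ifitm1: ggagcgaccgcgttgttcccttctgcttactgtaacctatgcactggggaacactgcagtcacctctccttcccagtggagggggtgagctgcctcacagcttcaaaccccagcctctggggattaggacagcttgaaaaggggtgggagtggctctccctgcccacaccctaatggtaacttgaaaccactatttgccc
The stretches lie at chr19:34640689-34640888 (Ifit1), chr19:34583329-34583528 (Ifit3), chr19:34607757-34607956 (Ifit3b), chr7:141010715-141010944 (Ifitm3), chr7:140955962-140956161 (Ifitm2) and chr7:140967876-140968075 (Ifitm1), the last inside the GENCODE span of its gene. In Ifit1 the matches began 104 and 85 bases before the start site, in Ifit3 156 and 122 and in Ifit3b 188 and 154, while both matches of Ifitm3 lay just after its start site. The Ifit3 and Ifit3b windows aligned over 260 bases, of which 258 were identical (99.2%). The shorter motif TTCNNNGAA, known as the gamma-activated site, was found in windows of Ifit2, Ifitm3 and Ifitm6 and in 9.55% of all genes. The Ifit1 window overlaps that of Ifit1bl2, which lies on the other strand, so the same 2 matches count for both genes. The Ifitm1 window lies downstream of the GENCODE start of that gene (chr7:140967221), so that start was not searched. RefSeq extends Ifitm2 to chr7:140959686, upstream of its window, and that end was not searched either. The same holds for the GENCODE start of Ifitm6 (chr7:141017924), which lies upstream of its window. It holds as well for the RefSeq starts of Ifit3 (chr19:34583119), Ifit3b (chr19:34607530) and Ifitm1 (chr7:140967429). A match says only that these letters are present, and binding was not measured.

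Values were FPKM (fragments scaled to the length of the gene and the total of the sample), which allow levels to be compared between genes of different length. The depth of each library is unknown, so no counting interval can be given. The lowest correlation between samples of a group was 0.938 in NC, 0.888 in COM and 0.989 in COM+Met. It was taken across the 10751 genes whose mean over the 18 samples was 1 FPKM or more. NC-5 and NC-6 stood apart from the other NC samples, and COM-1, COM-2 and COM-3 from COM-4, COM-5 and COM-6. Each of 8 macrophage markers averaged 1 FPKM or more in every group. Of these, Adgre1, Fcgr1 and Cd14 were called higher in COM than in NC (log2 differences 2.36, 3.05 and 2.86) and 0 were called lower, with a list median of 0.25. Summed neutrophil markers (9 genes) were 392 to 595 FPKM in NC, 306 to 329 in COM-1 to COM-3, 34.0 to 67.4 in COM-4 to COM-6 and 19.5 to 45.4 in COM+Met. The sum was mostly S100a8 and S100a9 in NC and mostly S100a8 in COM and COM+Met. Of the 9, 5 were tested between COM and NC, with S100a9, Ngp and Ltf called lower (log2 differences -4.58, -3.70 and -1.67) and S100a8 (-1.13) and Camp (0.77) not called. S100a8 was at 276 to 301 FPKM in COM-1 to COM-3, inside its NC range of 189 to 324, and mean Camp was 4.33 FPKM in NC and 7.93 in COM. Elane, Mpo and Retnlg, at means of 0.479, 0.145 and 0.128 FPKM in NC, were listed at 0 in every COM and COM+Met sample. Ly6g was near 0 in all groups, with means of 0.0584, 0 and 0.0344 FPKM in NC, COM and COM+Met. Summed fibroblast markers (6 genes) were 13.9 to 58.9 FPKM in NC, 1.42 to 30.2 in COM and 0.0598 to 3.22 in COM+Met. Tubular markers (12 genes, mostly Cdh1) summed to 10.9 to 18.2, 0.468 to 1.37 and 0.0575 to 0.332. Of these 12, only Cdh1 averaged 1 FPKM or more in NC, at 12.9. The tubular genes Umod, Havcr1 and Krt18 were at 0 in every sample, so the sum follows Cdh1 rather than the list. Dendritic cell markers (6 genes) summed to 6.07 to 6.60 FPKM in COM-1 to COM-3 and to no more than 3.36 in any other sample, and lymphocyte markers (6 genes) to no more than 0.356. The part of these cells in the results was not tested, and in bulk RNA fewer cells of a type and less RNA per cell cannot be told apart.

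Comparisons used log2(FPKM + 1), a scale that makes changes of low genes look smaller, and limma tested the genes whose mean over the 12 samples was 1 FPKM or more. A gene was called at a Benjamini-Hochberg adjusted p below 0.05 and a difference of at least 2-fold, that is 1 on this scale. All 8 members passed the filter in each comparison. Each member was tested as well by exact permutation (two-sided) of the 12 samples, where the smallest possible p is 0.00216.

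In BMDMs above crystal-exposed TECs, 5 of the 8 members were called higher than in NC, where 5.99% of 10900 genes tested were called in that direction. These were all 4 IFIT genes and Ifitm3. Ifitm6 was called lower, against 11.7% of all genes, and Ifitm1 and Ifitm2 were not called. The 5 that rose had no overlap between the groups of 6, which held for 8.6% of genes tested in that direction. Each reached the smallest exact permutation p, which follows from that separation and adds no further support. The median difference over all genes tested was -0.27.

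**Figure D1:**
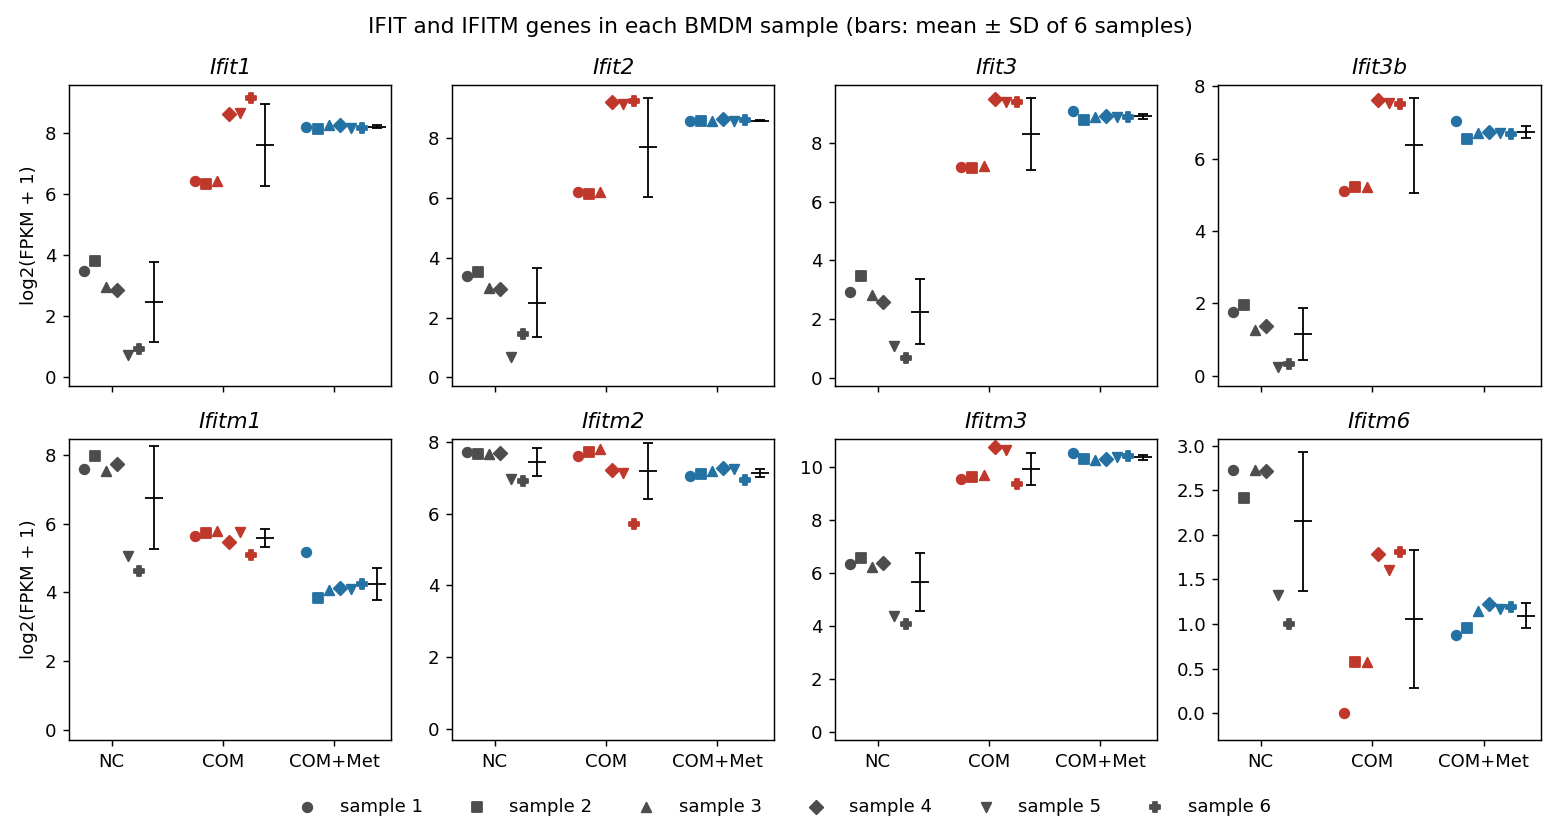
Level of each member, as log2(FPKM + 1), in the 18 BMDM samples of the NC, COM and COM+Met groups, 1 panel per gene with its own vertical axis. Symbols mark the sample number, black bars the mean ± SD of 6 samples; the 4 IFIT genes and Ifitm3 lie higher in every COM and COM+Met sample than in any NC sample.

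Among the RNA sensors, Ifit1 stood in NC-1 to NC-6 at 10.1, 13.1, 6.83, 6.25, 0.649 and 0.909 FPKM. Across COM-1 to COM-6 it was at 84.5, 80.4, 86.2, 394, 408 and 572 FPKM. The COM samples thus fell into a lower and an upper trio, both above all NC samples, and NC-5 and NC-6 were the lowest of their group. Mean Ifit1 was 6.30 ± 4.93 FPKM in NC and 271 ± 214 in COM (SD, n = 6 each), a limma log2 difference of 5.15 (SE 0.68, adjusted p = 5.3e-05).

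Ifit2, which binds AU-rich RNA and is linked to apoptosis, was at 0.60 to 10.6 FPKM in NC (median 6.90). Across COM-1 to COM-6 its FPKM were 72.9, 70.3, 73.2, 589, 573 and 615, again in the same trios. The log2 difference was 5.20 (SE 0.73, adjusted p = 8.81e-05 from limma).

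Ifit3, whose human counterpart stabilises IFIT1 on its RNA, was at 0.572 to 10.0 FPKM in NC (median 5.51). Across COM-1 to COM-6 it stood at 144, 142, 149, 720.0, 680.2 and 669.8 FPKM. With a log2 difference of 6.06 (SE 0.60, adjusted p = 5.42e-06 from limma) it had the largest rise of the 8 members and ranked 6 among all genes tested, counted from the highest. Its near copy Ifit3b was at 0.170 to 2.84 FPKM in NC (median 1.48) and in COM-1 to COM-6 at 33.5, 36.0, 36.1, 195, 185 and 181. Its log2 difference was 5.22 (SE 0.54, adjusted p = 7.43e-06 from limma).

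Ifit3 and Ifit3b can share reads: 51.2% of the 50-base stretches of Ifit3 exons recur elsewhere in the annotated transcripts, all of them in Ifit3b. At 100 bases the share was 31.7%. How the quantifier treated reads that match both is not given in the sources used here, so the split between them is uncertain. Ifit3b stood at 0.232 to 0.272 of the Ifit3 level within each COM sample and at 0.207 to 0.239 within each COM+Met sample. In NC, where both were low, the ratio ran from 0.153 to 0.422. For Ifit1 the 50-base share was 7.13%, nearly all with Ifit1bl2, and for Ifit2 it was 0. In RefSeq the span of Ifit1bl1, on the minus strand, takes in the plus-strand genes Ifit3b and Ifit1. GENCODE M21 lists no gene that overlaps either of them, and a shared span need not mean shared exons. With annotation and strand setting not given, whether their reads were counted for more than 1 gene cannot be told.

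Ifitm3, the endosomal fusion inhibitor, stood in NC-1 to NC-6 at 79.5, 93.3, 74.0, 81.7, 19.8 and 16.1 FPKM. For COM-1 to COM-6 the values were 739.6, 795, 819, 1702, 1577 and 648 FPKM. Here COM-6 was the lowest COM sample, although it had the highest Ifit1 and Ifit2 of the group. Mean Ifitm3 was 60.7 ± 33.7 FPKM in NC and 1047 ± 465 in COM (SD, n = 6 each), and the log2 difference was 4.26 (SE 0.46, adjusted p = 1.08e-05 from limma). Ifitm3 then ranked 40 by mean level in COM among all genes tested.

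The other IFITM genes did not rise. Ifitm1, a plasma membrane protein that was the second most abundant member in NC, stood in NC-1 to NC-6 at 192, 248, 184, 214, 32.1 and 23.3 FPKM and was at 33.1 to 54.3 in COM (median 50.2). The COM samples lay below NC-1 to NC-4, and NC-5 and NC-6 lay below all of them. The log2 difference was -1.17 (SE 0.55, 95% interval -2.37 to 0.023, adjusted p = 0.0901 from limma). Without NC-5 and NC-6 it was -2.13, and leaving out NC-5 or NC-6 alone made the gene called lower, at -1.51 and -1.60. As these were the lowest NC samples for this gene, leaving them out can only widen the fall. These values are therefore a description and carry no test.

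Ifitm2, an IFITM protein found mainly in endosomes, was the most abundant member in NC at 119.9 to 209 FPKM (median 199.7). For COM-1 to COM-6 it was at 194, 211, 221, 147, 138 and 51.5 FPKM, a range that spans that of NC. The log2 difference was -0.23 (SE 0.32, 95% interval -0.93 to 0.46, adjusted p = 0.551 from limma). Without COM-6 it was 0.063, and with median-of-ratios scaling it was 0.084, so no direction can be given. Of the 50-base stretches of Ifitm2, 48.5% recur in other transcripts, mostly in the overlapping same-strand gene Gm45717, whose median was no more than 1.08 FPKM in each group, with 47.4 in COM+Met-6.

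Ifitm6, a family member known from myeloid cells, stood in NC-1 to NC-6 at 5.60, 4.32, 5.60, 5.59, 1.51 and 1.00 FPKM. In COM-1 it was listed at 0, in COM-2 and COM-3 at 0.490 and 0.488, and in COM-4 to COM-6 at 2.46, 2.04 and 2.49. NC-5 and NC-6 overlapped with the COM samples. The log2 difference was -1.09 (SE 0.40, adjusted p = 0.035 from limma, exact permutation p = 0.0411). The call did not hold when any 1 of NC-1 to NC-4 or COM-1 to COM-3 was left out (adjusted p = 0.064 to 0.0756), with median-of-ratios scaling (-0.85, adjusted p = 0.119) or without COM-1 to COM-3 (-0.42, adjusted p = 0.388). At a few FPKM the precision of these values is unknown.

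**Figure D2:**
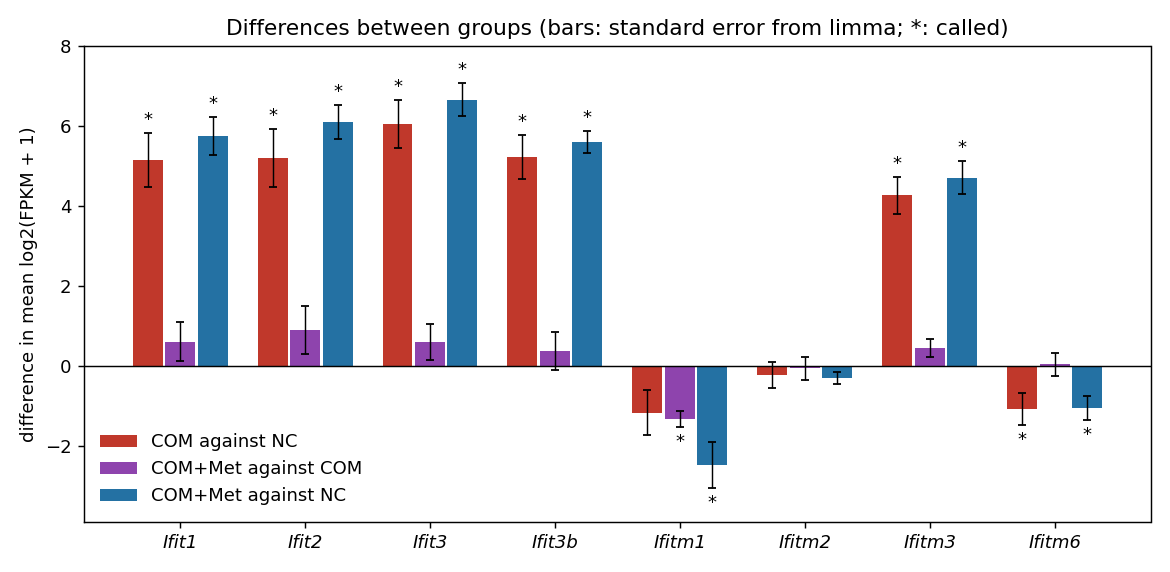
Difference in mean log2(FPKM + 1) between groups for each member in 3 comparisons, with the standard error from limma and an asterisk where a gene was called. The bars of the 4 IFIT genes and Ifitm3 are high in both comparisons with NC, from 4.26 to 6.66, and small between COM+Met and COM, where Ifitm1 alone was called.

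The balance within the IFITM family turned over between the groups. Ifitm3 made up 10.0% to 17.1% of the summed IFITM level in NC samples, 74.8% to 89.8% in COM samples and 88.2% to 90.7% in COM+Met samples. Ifitm1 made up 14.6% to 45.5%, 2.29% to 4.96% and 0.925% to 2.13%. Within each NC sample Ifitm2 stood at 2.13 to 7.46 times the FPKM of Ifitm3, and within each COM sample at 0.0794 to 0.270 times. These ratios are taken within a sample and so do not change when a sample is scaled by a single factor.

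Within the IFIT family the shares of Ifit3 overlapped between all groups. Ifit3 was 16.7% to 44.0% of the summed IFIT level in NC samples (median 26.4%), 32.9% to 43.2% in COM samples (median 40.5%) and 37.1% to 40.2% in COM+Met samples (median 37.5%). Ifit2 was 23.7% to 49.8%, 21.3% to 31.0% and 28.4% to 31.7% of the sum in the same order of groups. Ifit3b was the lowest of the 4 in every group, at 6.59% to 10.9% of the sum. The summed IFIT level was 19.5 to 36.5 FPKM in NC-1 to NC-4, 2.53 in NC-5 and 3.43 in NC-6. It was 329 to 344 in COM-1 to COM-3, 1846 to 2038 in COM-4 to COM-6 and 1201 to 1347 in COM+Met.

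**Figure D3:**
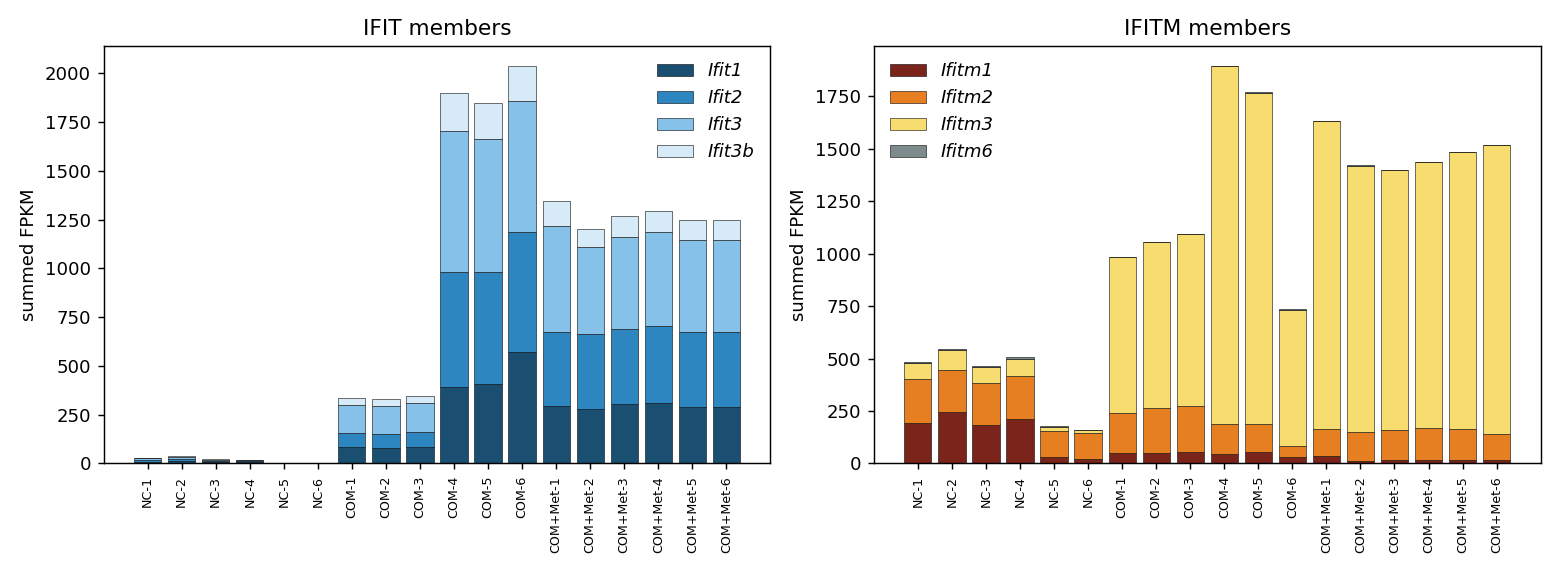
FPKM of the 4 IFIT members (left) and the 4 IFITM members (right), stacked for each of the 18 samples. The IFIT sum is lowest in NC, 329 to 344 in COM-1 to COM-3 and 1846 to 2038 in COM-4 to COM-6, with all COM+Met samples between these, and Ifitm3 takes most of the IFITM sum in COM and COM+Met.

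Between COM+Met and COM, 0 of the 8 members were called higher and 1 was called lower, where 0.608% and 1.61% of 10364 genes tested were called. At an unadjusted p below 0.05 the limma counts were also 0 higher and 1 lower, against 13% and 15.6% of genes. Ifitm1 was the gene called. From COM+Met-1 to COM+Met-6 it was at 34.7, 13.1, 15.8, 16.5, 16.1 and 17.9 FPKM. Only COM+Met-1 reached into the COM range, where COM-6 was lowest at 33.1. Mean Ifitm1 was 47.3 ± 7.97 FPKM in COM and 19.0 ± 7.83 in COM+Met (SD, n = 6 each), and the log2 difference was -1.32 (SE 0.20, 95% interval -1.76 to -0.89, adjusted p = 0.0013 from limma, exact permutation p = 0.00433). It was -1.46 without COM-4 to COM-6 and -1.18 without COM-1 to COM-3. These sets were split with values of the samples known, so both differences are a description and carry no test. With all 18 samples in the same fit, which takes in the wide spread of NC, the adjusted p was 0.0709. COM+Met-1 was also the COM+Met sample with the highest summed neutrophil markers (45.4 FPKM) and fibroblast markers (3.22 FPKM against no more than 0.119 in the other COM+Met samples), whose part was not tested.

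The IFIT genes had log2 differences of 0.60 (Ifit1, SE 0.49), 0.89 (Ifit2, SE 0.60), 0.60 (Ifit3, SE 0.45) and 0.37 (Ifit3b, SE 0.48) between COM+Met and COM, with adjusted p from 0.357 to 0.652 in limma. The 95% intervals were wide, from -0.46 to 1.65 for Ifit1 and from -0.41 to 2.20 for Ifit2, so that neither a rise of over 3-fold nor a small fall lies outside them. The COM samples were spread on both sides of COM+Met. Ifit1 was at 282 to 310 FPKM in COM+Met, above the 80.4 to 86.2 of COM-1 to COM-3 and below the 394 to 572 of COM-4 to COM-6. Ifit2 at 381 to 397, Ifit3 at 446 to 541 and Ifit3b at 92.5 to 129.6 FPKM lay between the COM trios in the same way.

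The sign of the IFIT difference therefore differed between the COM trios. The trios were split with these IFIT values known, so the differences against each are a description and carry no test. Against COM-1 to COM-3 alone they were 1.81, 2.40, 1.72 and 1.56 on the log2 scale for Ifit1, Ifit2, Ifit3 and Ifit3b, and against COM-4 to COM-6 alone -0.61, -0.62, -0.52 and -0.82. The labels give nothing that separates these COM samples. The trios differed as well in summed neutrophil and dendritic cell markers, whose part was not tested.

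**Figure D4:**
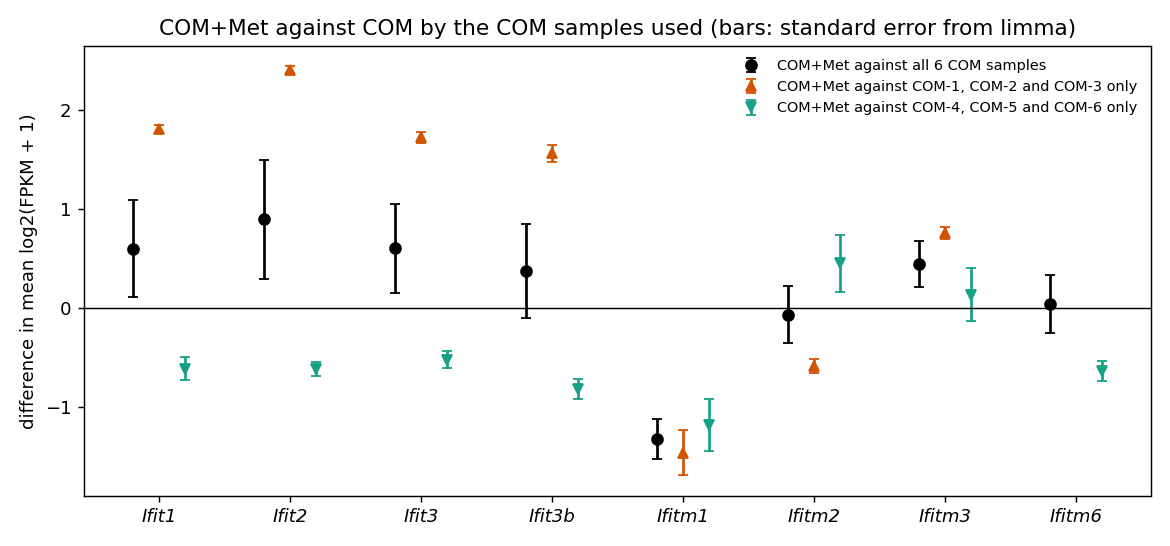
Difference in mean log2(FPKM + 1) between COM+Met and COM for each member, with the standard error from limma, computed against all 6 COM samples, COM-1 to COM-3 or COM-4 to COM-6. The IFIT points lie above 0 against the first trio and below 0 against the second, while Ifitm1 lies below 0 in all 3; Ifitm6 has no point against COM-1 to COM-3, where its mean was under 1 FPKM.

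Ifitm3 was at 1237 to 1464 FPKM in COM+Met (median 1294), which lies inside the COM range of 648 to 1702. The log2 difference was 0.44 (SE 0.23, 95% interval -0.056 to 0.94, adjusted p = 0.229 from limma). Ifitm2 was at 121 to 152 FPKM (log2 difference -0.07, SE 0.29, 95% interval -0.70 to 0.56) and Ifitm6 at 0.843 to 1.34 FPKM (0.04, SE 0.29, 95% interval -0.59 to 0.66), and neither was called. Ifit1 and Ifit2 varied little between the COM+Met samples. The SD of Ifit2 was 5.91 around a mean of 386 FPKM, and that of Ifit1 10.7 around 295.

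COM+Met also differed from NC in the members that COM did, and both comparisons share the NC samples. Here 5 members were called higher, against 5.66% of 10786 genes tested, and 2 lower, against 13.6%. The log2 differences of the risers were 5.75 (Ifit1, SE 0.48), 6.10 (Ifit2, SE 0.43), 6.66 (Ifit3, SE 0.41), 5.59 (Ifit3b, SE 0.27) and 4.71 (Ifitm3, SE 0.41), with adjusted p of 2.86e-07 or lower from limma. The groups of these 5 did not overlap, as was so for 14.1% of genes tested in that direction. Ifitm1 was lower by 2.49 (SE 0.57, adjusted p = 0.00154 from limma), from 149 ± 96.4 to 19.0 ± 7.83 FPKM (SD, n = 6 each), although NC-5 and NC-6 lay inside the COM+Met range. The upper end of that range was COM+Met-1 at 34.7 FPKM, with 13.1 to 17.9 in the other COM+Met samples. Ifitm6 was lower by 1.06 (SE 0.29, adjusted p = 0.00534 from limma), and it fell short of the 2-fold limit without NC-1, NC-3 or NC-4 (-0.94 each). The interval of the Ifitm2 difference, -0.62 to 0.022, included 0.

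In order of level, the 5 risers had NC as the lowest group, and COM and COM+Met could not be ordered beyond the spread of their samples. For Ifitm1 the order of means was NC, COM and COM+Met from the highest, with NC and COM not separated by the test on all 12 samples. For Ifitm6 NC was the highest and COM and COM+Met were not separated, and for Ifitm2 no neighbouring groups were.

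Outside the 8 members, the Ifit1-like gene Ifit1bl1 was at 0.444 to 4.62 FPKM in NC, in COM-1 to COM-6 at 16.7, 20.6, 18, 423, 435 and 522, and at 134 to 160 in COM+Met. Its COM trios lay even further apart than those of Ifit1. The log2 difference between COM and NC was 4.81 (SE 0.96, adjusted p = 0.00113 from limma). Ifit1bl2 had a mean of 0.135 FPKM in NC and 1.15 in COM, too low for the test. Ifitm10 was at means of 1.71, 3.45 and 0.729 FPKM in NC, COM and COM+Met and was not called in any comparison.

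Of the 12 neighbours of the IFIT members on chromosome 19, 8 were tested between COM and NC. Over all genes tested there, 5.99% were called higher and 11.7% lower. Ifit1bl1 was called higher, and Acta2 (smooth muscle actin, -1.91) and Kif20b (a mitotic kinesin, -2.39) were called lower. Fas (0.58), Ch25h (0.72) and Lipa (-0.71), nearby genes of cell death, sterol oxidation and lipid breakdown, were not called. Of 10 neighbours of the IFITM members on chromosome 7, 3 were tested, too few to set against the shares over all genes. In each of the 3 comparisons 0 were called, with log2 differences between COM and NC of -0.30 for Psmd13 and -0.44 for Pgghg.

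The genes of the interferon pathway were taken from lists written with earlier results of these data known. Between COM and NC, limma called 5.99% of all genes tested higher and 11.7% lower, to be set beside the counts of these lists. Of 21 interferon ligand genes, 0 reached a mean of 1 FPKM in any comparison. Ifnb1, which encodes interferon beta, had means of 0.0407 ± 0.0777, 0.446 ± 0.395 and 0.426 ± 0.207 FPKM in NC, COM and COM+Met (SD, n = 6 each). Levels this low cannot be weighed without the depth. Of the 5 receptor genes tested, 1 was called higher in COM: Ifnar2, a chain of the type I receptor, went from 44.5 ± 7.06 to 119.8 ± 27.7 FPKM (log2 difference 1.39, adjusted p = 1.82e-05 from limma). Ifngr1, a chain of the interferon gamma receptor, was lower by 0.81 (adjusted p = 0.00135 from limma), short of the 2-fold limit.

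Of 5 genes for receptor kinases and for subunits of ISGF3, 3 were called higher in COM and 0 lower, with a list median of 1.40. The largest log2 differences were 2.29 for the kinase gene Jak2 and 2.26 for Stat2, and Irf9 was the other gene called (1.40). Of 6 interferon regulatory factor genes, 2 were called higher, with a list median of 0.36. Irf7, which amplifies interferon production, went from 8.52 ± 4.22 to 594 ± 193 FPKM (SD, n = 6 each; log2 difference 6.05), and Irf1 rose by 1.13 on the log2 scale. Irf3, its constitutive relative, had a difference of -0.32 and was not called.

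Of 7 feedback genes, 4 were called higher and 0 lower, with a list median of 1.90. The largest were Isg15, a ubiquitin-like protein (5.44), and Usp18, which removes Isg15 from proteins and blocks the type I receptor (4.38). Of 5 genes linked to IFIT function, 0 were called, and the largest differences were 0.96 for Cmtr1, the enzyme that methylates the cap site that Ifit1 reads, and -0.61 for the translation factor subunit Eif3e. Of 5 genes linked to IFITM function, 1 was called lower, where 11.7% of all genes tested were, so the count does not stand out. The gene was the ubiquitin ligase Nedd4, which marks IFITM proteins for turnover (-1.04, adjusted p = 0.00946 from limma).

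From COM to COM+Met, 0 genes of these pathway and partner lists were called by limma. Over all 10364 genes tested, 0.608% were called higher and 1.61% lower, so a count of 0 says little about these lists. By adjusted p alone 1 was higher, Irf1 (log2 difference 0.72, adjusted p = 0.0452). The medians of the 6 lists with genes tested in this comparison lay between -0.15 and 0.14, beside 0.0033 over all genes tested.

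**Figure D5:**
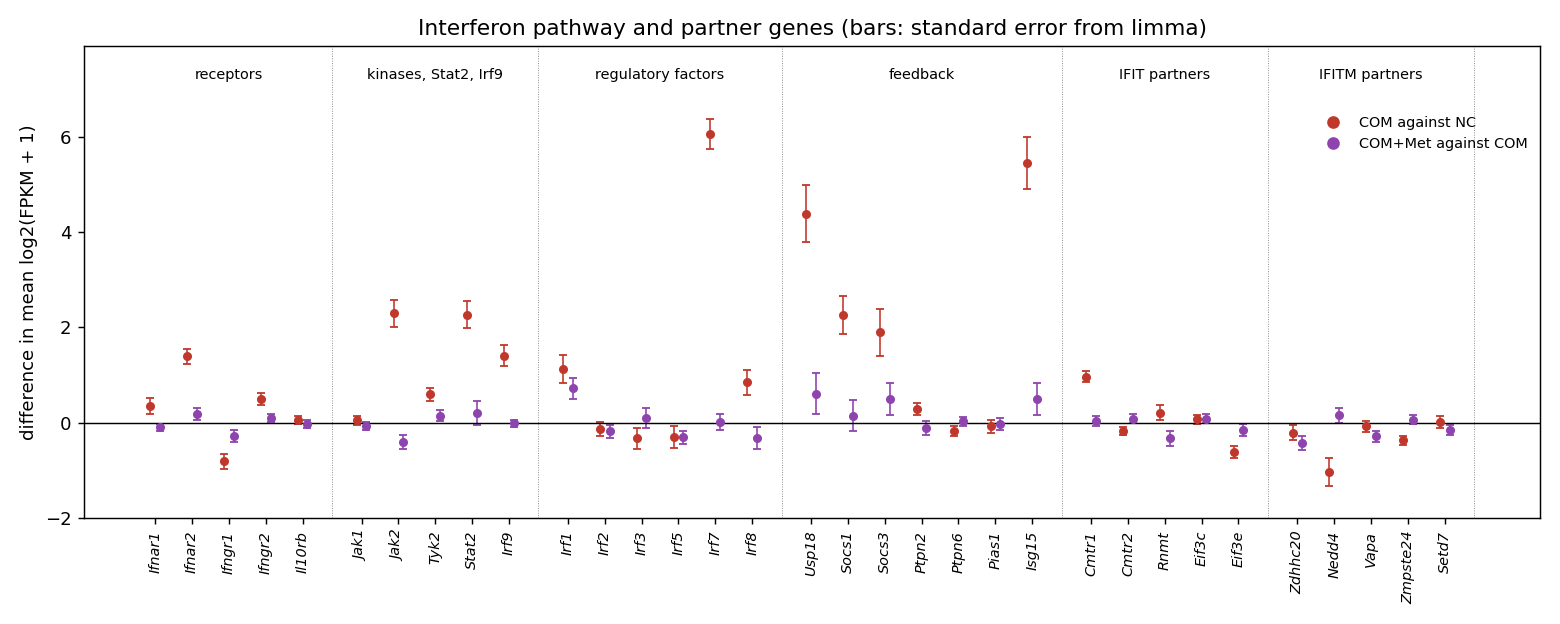
Difference in mean log2(FPKM + 1) for interferon pathway and partner genes between COM and NC (red) and between COM+Met and COM (purple), with the standard error from limma. Irf7 (6.05), Isg15 (5.44) and Usp18 (4.38) stand highest between COM and NC, and all purple points lie between -0.43 and 0.72.

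The genes most like the members were found by Pearson r of log2(FPKM + 1) over the 18 samples, among 10743 other genes. The samples form 3 groups and share libraries, so r is a description and carries no test. For the mean of the 4 IFIT members these were Rnf213 (a large ubiquitin ligase), Gbp2 and Gbp3 (guanylate-binding proteins), each with r = 0.997. With group means removed they were Gbp5 (0.991), Gbp3 (0.990) and a gene model without a symbol (0.990). Gbp2 went from a mean of 28.6 FPKM in NC to 525 in COM and 636 in COM+Met.

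For Ifitm3 they were Isg15 (0.996), Ifi27l2a (0.996) and Oas3 (0.995), all known as interferon-stimulated genes. Ifitm1 lay closest to Ccl17 (0.978), H2-DMb2 (0.970) and Jarid2 (0.948), and Ccl17, a chemokine, stood first with group means removed as well (0.966). Mean Ccl17 was 29.6, 6.85 and 3.20 FPKM in NC, COM and COM+Met. Ifitm2 lay closest to Ppm1m (0.976), Sirpa (0.972) and Cd300c2 (0.961). Ifitm6 lay closest to Slc30a1 (0.934), Lmo2 (0.919) and Arf6 (0.916), and with group means removed to Ms4a6c (0.974), whose mean was 9.72 FPKM in NC and 207 in COM while that of Ifitm6 was lower in COM.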

How the data were processed

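Bulk RNA-seq covered 18 BMDM samples in the groups NC, COM and COM+Met (6 in each group), grouped and numbered by the sample titles. The authors deposited FPKM values for 25926 genes, with replicates kept apart and no counts. The libraries were made from total RNA with a TruSeq kit. Bowtie 0.12.2, mm8 and mm9 are named in the submitters' processing notes. Quantifier, annotation and strand setting: not given in the sources used here. All 18 sample columns were used. Because FPKM divides by a sample's total, a gene can fall in FPKM when abundant genes rise. Whole reads could not be recovered: below 0.5 FPKM, the most common ratio of values between 2 samples was shared by 0.185% to 0.417% of genes.

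Tests were made on log2(FPKM + 1) with limma 3.58.1 (lmFit, eBayes with a trend; R 4.3.3), in a separate fit of 12 samples for each comparison, over the genes whose mean there was 1 FPKM or more. Benjamini-Hochberg adjustment covered all of these. Single members were also tested by exact permutation. The procedure was tested on simulated data, drawn with the same spread in both groups and with no samples that stood apart. It therefore does not cover the unequal spreads and the COM trios of these data. Python 3.11.15 served for the rest, with biopython 1.88 for alignments, pandas 2.3.3 and numpy 2.4.6 for tables and matplotlib 3.10.9 for plots. Positions and shared stretches of 50 and 100 bases came from GENCODE M21 on GRCm38, and promoter windows from RefSeq on GRCm38.p6, neither of which is stated as the build of the files.

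The members and all gene lists were chosen with earlier results of these data known. Of the pathway lists, 1 gene is not reported here, and counts and medians leave it out. All 8 members are named. List genes are named if among the 2 largest changes of their list or where a result turned on them, neighbours were the 5 nearest genes on each side and those between members, and genes most alike were the top 3 by Pearson r. Irf3, Ifngr1, the neighbours given by name and the examples of mean levels were picked for description after their values had been seen. Alternatives tried were no filter, pseudocounts of 0.1 and 5, a filter of 5 FPKM, TPM, median-of-ratios and quantile scaling, sample numbers as blocks, 1 fit of all 18 samples, sample weights, no trend, each sample left out, and sets of samples that stood apart left out.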

Additional observations from a re-analysis of the deposited data

Results flagged for a closer look

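The 8 members in 3 groups gave 24 groups of 6 values, taken here on log2(FPKM + 1). In each, the gap of the highest or lowest sample to its neighbour was compared with the range of the group. Of these gaps, 2 passed Dixon's 95% critical value of 0.625, and on FPKM itself the ratios would differ. Chance flags about 1 in 20 groups. Ifitm1 in COM+Met-1, at 34.7 FPKM, lay above the next value of 17.9, with a gap of 0.684 of the range on the log2 scale. Ifitm2 in COM-6, at 51.5 FPKM, lay below the next value of 138, with a gap of 0.673 of the range on the log2 scale. COM-6 was also the COM sample with the lowest Ifitm1 and Ifitm3, while its Ifit1 and Ifit2 were the highest. Its FPKM summed over all genes to 380731, the lowest of the 18 samples, with 415715 to 449186 in the others. The part of this difference was not tested.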

How the results depend on the processing

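The 4 IFIT genes and Ifitm3 were called higher than in NC under each of the 26 alternatives for COM and the 24 for COM+Met. Between COM and NC, the count of members called lower (1 as reported) was 0 with a pseudocount of 0.1 or 5, no filter, a filter of 5 FPKM, median-of-ratios or quantile scaling, the replicate block, or without COM-1 to COM-3 (added after the values were seen). It was 2 with all 18 samples in the same fit, with sample weights or without NC-5 and NC-6, and 0 to 2 when 1 sample was left out. Between COM+Met and COM, the count called higher (0 as reported) was 4 with sample weights and without COM-4 to COM-6, and the count called lower (1 as reported) was 0 with all 18 samples in the same fit. Between COM+Met and NC, the count called lower (2 as reported) was 1 with a pseudocount of 5, a filter of 5 FPKM, median-of-ratios or quantile scaling, and 1 to 2 when 1 sample was left out. The causes were not tested.

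Ifitm2 changed sign between COM and NC with median-of-ratios scaling (0.084), sample weights (0.050) and without COM-4 to COM-6 (0.28), and ran from -0.35 to 0.063 when 1 sample was left out. Against NC it was 0.012 in COM+Met with median-of-ratios scaling. Between COM+Met and COM, leaving out COM-1 to COM-3 gave -0.61, -0.62, -0.52 and -0.82 for Ifit1, Ifit2, Ifit3 and Ifit3b, 0.45 for Ifitm2 and -0.64 for Ifitm6. In that comparison Ifitm6 was -0.024 with a pseudocount of 5 and ran from -0.18 to 0.19 with 1 sample left out, and Ifitm2 from -0.36 to 0.053. Samples with the same number did not deviate together (r from -0.222 to 0.057), so the replicate block rests on a shared number only, and of the members' calls it ended that of Ifitm6 between COM and NC (adjusted p = 0.0816 from limma).

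Over all genes, 1926, 230 and 2078 were called between COM and NC, COM+Met and COM, and COM+Met and NC. A pseudocount of 5 gave 980, 90 and 1117. For COM+Met against COM, a pseudocount of 0.1 gave 370, sample weights 719 and leaving out COM-4 to COM-6 771. Median-of-ratios scaling moved the median difference from -0.27 to 0.0048 (COM against NC) and from -0.26 to 0.011 (COM+Met against NC), and the share of higher genes among those called from 33.9% to 51.3% and from 29.4% to 46.0%. With quantile scaling the shares were 47.2% and 43.8%. The depth is unknown, so the precision of low values such as those of Ifitm6 and Ifnb1 cannot be given.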
